A study of Mus musculus with 14 samples.

Results

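Small nucleolar RNAs (snoRNAs) and small Cajal body RNAs (scaRNAs) were examined in RNA-seq libraries from mouse tail intervertebral discs. A gene was kept when the table gave it the biotype snoRNA or scaRNA and its unscaled CPM (the count divided by the library total, in parts per 1000000) exceeded 1 in at least 3 of the 14 libraries. Of 1558 such genes in the table, 16 were kept, made up of 11 of 1507 snoRNA genes and 5 of 51 scaRNA genes. A further 918 had no count in any library. The 16 genes were thus chosen by their level in these libraries, which is given here as a description.

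The study asked how diabetes changes the disc in a genetic and in an induced mouse model. The db/db mice were male, 3 months old and homozygous for the Lepr db point mutation of the leptin receptor (3 libraries), and their controls were heterozygous db/+ littermates (3 libraries). The STZ-HFD mice were male C57BL/6J mice, aged 12 weeks in the study's methods, that ate a high-fat diet for 4 to 6 weeks, received 100 mg/kg streptozotocin, a toxin of pancreatic beta cells, and stayed on the diet for another 12 weeks (4 libraries). Their controls, Con+Veh, were C57BL/6J mice on standard chow that were given the buffer alone and carry the label wild-type (4 libraries). The labels put the fat share of the diet at 80% of kcal, and the study's methods name a lower share. Each library came from discs pooled from 1 mouse, and all carry 1 batch label. By the labels the db/db and db/+ mice had no treatment, and the strain background of these mice is not in the labels, so the 2 pairs of groups differ in more than the cause of diabetes.

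SnoRNAs are short stable RNAs of the nucleolus that pair with other RNAs and direct enzymes to them. Box C/D snoRNAs bind fibrillarin and mark sites for 2′-O-methylation, box H/ACA snoRNAs bind dyskerin and mark sites for pseudouridine, and a few, U8 among them, take part in cutting pre-ribosomal RNA. ScaRNAs carry the same boxes and guide the modification of spliceosomal RNAs in Cajal bodies. In mammals most are cut from introns of host genes after splicing, whereas a few, such as U8 and Scarna2, are transcribed from promoters of their own.

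The following sequences are shown because the results turn on these genes. They are GENCODE M21 transcripts on GRCm38, written 5′ to 3′ as DNA letters, and capitals mark the boxes that were found. The letters searched, on the strand of the RNA only, were TGATGA within the first 20 bases (box C), CTGA within the last 20 (box D) and ACA within the last 7 (box ACA). Snord104 (chr11:106500993-106501062, + strand) and the scaRNA gene Gm25395 (chr1:87776938-87777209, + strand) held boxes C and D. Snord118, which encodes U8 (chr11:69073427-69073561, + strand), held box D at its end and TGATGA only at base 53. The scaRNA gene Gm22009 (chr3:69085105-69085447, - strand) is 343 bases long, and the last 150 are shown (chr3:69085105-69085254).
Snord104: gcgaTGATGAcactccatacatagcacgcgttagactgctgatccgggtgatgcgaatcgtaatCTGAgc
Snord118: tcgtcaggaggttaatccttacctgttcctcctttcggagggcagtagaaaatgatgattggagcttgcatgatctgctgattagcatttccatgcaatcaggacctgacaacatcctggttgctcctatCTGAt
Gm25395: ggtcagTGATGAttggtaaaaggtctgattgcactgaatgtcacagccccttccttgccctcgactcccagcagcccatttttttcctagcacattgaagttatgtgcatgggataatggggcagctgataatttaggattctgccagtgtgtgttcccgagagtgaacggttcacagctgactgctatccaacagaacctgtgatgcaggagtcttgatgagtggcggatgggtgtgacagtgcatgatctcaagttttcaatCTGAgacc
Gm22009 3-prime part: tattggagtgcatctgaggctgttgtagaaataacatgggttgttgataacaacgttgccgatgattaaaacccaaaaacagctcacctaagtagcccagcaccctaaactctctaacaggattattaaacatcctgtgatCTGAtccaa

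Among the genes with an ACA box, Gm25117 (chr10:111481493-111481636, + strand), the scaRNA gene Scarna13 (chr12:105031075-105031349, - strand), Snora23 (chr7:110046364-110046547, + strand) and Gm22299 (chr15:58041516-58041651, - strand) are shown for their levels or changes described further on.
Gm25117: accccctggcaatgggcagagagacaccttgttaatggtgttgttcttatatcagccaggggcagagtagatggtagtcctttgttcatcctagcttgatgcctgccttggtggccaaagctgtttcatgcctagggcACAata
Scarna13: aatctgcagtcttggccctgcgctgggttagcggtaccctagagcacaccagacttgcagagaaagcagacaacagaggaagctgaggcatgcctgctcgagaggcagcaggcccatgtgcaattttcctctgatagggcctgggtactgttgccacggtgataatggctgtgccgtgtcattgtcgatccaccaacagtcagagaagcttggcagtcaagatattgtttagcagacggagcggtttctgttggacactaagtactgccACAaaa
Snora23: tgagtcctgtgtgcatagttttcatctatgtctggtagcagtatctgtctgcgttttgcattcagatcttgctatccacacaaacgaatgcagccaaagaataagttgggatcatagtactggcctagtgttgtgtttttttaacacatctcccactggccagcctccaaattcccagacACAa
Gm22299: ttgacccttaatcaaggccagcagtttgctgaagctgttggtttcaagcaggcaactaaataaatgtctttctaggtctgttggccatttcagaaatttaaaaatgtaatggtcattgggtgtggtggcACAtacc

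Another 3 genes, Gm23803 (chr10:59817666-59817797, - strand), Gm23582 (chr11:21249422-21249560, - strand) and Gm26070 (chr11:35214401-35214537, + strand), were related in sequence, although they lie in different places. Gm23803 shared 105 of 140 aligned bases (75.0%) with Gm23582 and 106 of 143 (74.1%) with Gm26070, and the other two shared 67.8%. No other pair among the 16 reached 60% identity (the next, Snord104 and Scarna17, reached 58.4%).
Gm23803: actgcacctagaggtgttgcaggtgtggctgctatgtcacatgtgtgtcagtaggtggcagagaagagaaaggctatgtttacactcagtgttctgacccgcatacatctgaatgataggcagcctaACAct
Gm23582: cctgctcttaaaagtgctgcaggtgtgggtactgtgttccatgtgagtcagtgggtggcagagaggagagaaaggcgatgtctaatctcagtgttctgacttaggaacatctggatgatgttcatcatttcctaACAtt
Gm26070: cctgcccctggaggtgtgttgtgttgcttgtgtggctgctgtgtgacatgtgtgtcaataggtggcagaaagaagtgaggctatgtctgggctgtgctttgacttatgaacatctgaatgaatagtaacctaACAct

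Boxes C and D stood together in 4 of the 16 genes (25.0%), which were Gm22009, Snord104, Scarna17 and Gm25395, against 314 of all 1558 snoRNA and scaRNA genes (20.2%). An ACA box near the end was found in 9 (56.2%), against 728 of 1558 (46.7%). Snord118, Gm23969 and Scarna2 met neither rule, although each had box D letters near its end. A match of these letters is a description and not a test of function. The 16 genes had a median length of 136.5 bases, against 128 bases over all 1558.

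The libraries held between 16076908 and 58943169 counts. STZ-HFD replicate 1 stood apart from the rest. It had the smallest total, yet 42626 genes had a count in it against 25194 to 29924 in the other 13 libraries, and 71.5% of processed pseudogenes had one against 28.8% to 38.5%. In the same library 383 snoRNA and scaRNA genes had a count, against 86 to 247 elsewhere, and the 16 genes took 38.8% of all snoRNA and scaRNA counts, against 42.1% to 82.6%. Ribosomal RNA genes took 28.1% to 39.7% of the counts in the db/db and db/+ libraries and 44.4% to 60.2% in the Con+Veh and STZ-HFD libraries. Between 59.3% and 83.1% of the counts of 1 to 10 in a library were even numbers, so low counts did not behave as counts of single independent molecules.

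The summed level of 7 disc and cartilage markers, Acan and Col2a1 among them, was 52524 to 76075 CPM in db/+, 26276 to 59283 in db/db, 5061 to 20268 in Con+Veh and 1827 to 3919 in STZ-HFD, and none of the 7 was at 0 everywhere. The sum was thus lower in every STZ-HFD library than in any Con+Veh library, as were Acan, Chad, Sox9 and Prg4 singly. Col2a1, Col1a1 and Comp overlapped between these groups. Skeletal muscle markers summed to 2426 to 5392 CPM in db/+, 1738 to 2974 in db/db, 4106 to 5177 in Con+Veh and 4361 to 11607 in STZ-HFD. Adipocyte markers summed to 39.2 to 53.4 CPM in db/+, 108 to 219 in db/db, 59.9 to 162 in Con+Veh and 106 to 199 in STZ-HFD, with no overlap between db/db and db/+. Bone markers summed to 833 to 1419 CPM in db/+ and 482 to 752 in db/db, again without overlap, and to 76.2 to 292 in Con+Veh and 65.7 to 201 in STZ-HFD. Erythroid, neutrophil, and nucleus pulposus and notochord marker sums overlapped within both pairs of groups. The part of these cell types in the levels of the 16 genes was not tested, and in such pooled tissue fewer cells of a type and less RNA per cell cannot be told apart.

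**Figure D1:**
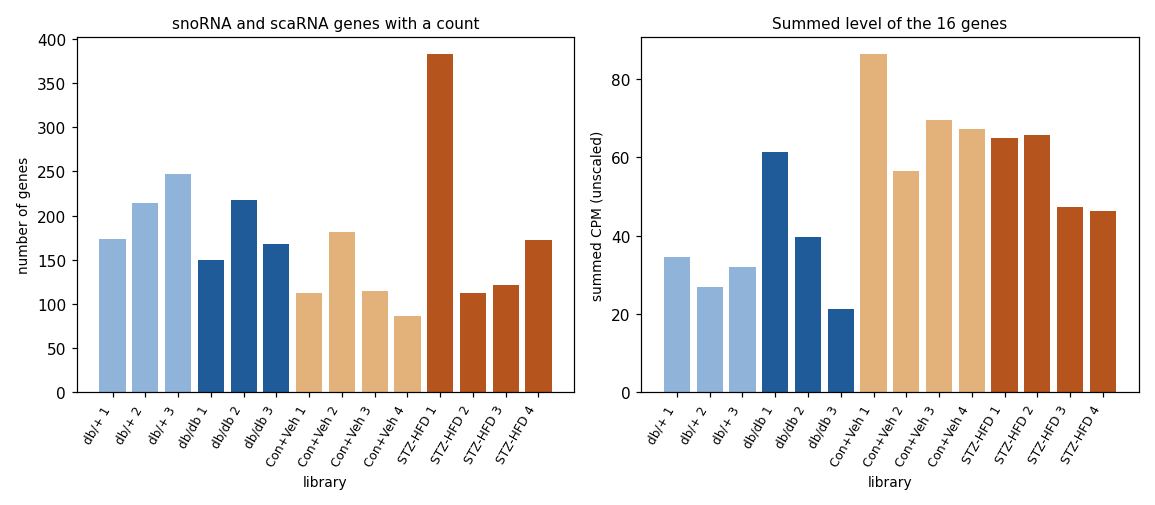
Bars show, for each of the 14 libraries, the number of snoRNA and scaRNA genes with at least 1 count (left) and the summed unscaled CPM of the 16 genes (right), coloured by group. STZ-HFD replicate 1 had 383 genes with a count while the summed level of the 16 genes, 64.9 CPM, lay within the range of the other libraries.

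Few snoRNA genes passed the minimum. Of the snoRNA and scaRNA genes 1.03% did, against 62.1% of protein-coding genes, 0.505% of small nuclear RNA genes, 1.22% of microRNA genes and 4.09% of the mixed class misc_RNA. The scaRNA genes passed more often (9.80%) than snoRNA genes (0.730%), which was not tested. Just inside the minimum lay Gm26070 and Gm24233, whose unscaled levels in the library that decided the rule were 1.04 and 1.10 CPM, and just outside it lay Gm26397 (0.968 CPM) and the scaRNA gene Gm23119 (0.946 CPM). When 1 library was left out in turn, 13 to 16 of the genes still met the rule, and the fewest were left without db/+ replicate 3, when Gm24233, Gm25117 and Gm26070 dropped out.

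Unscaled, the 16 genes summed to 26.9 to 34.5 CPM in db/+, 21.3 to 61.2 in db/db, 56.5 to 86.3 in Con+Veh and 46.4 to 65.5 in STZ-HFD. Diabetic and control libraries overlapped in both pairs. The log2 ratio of the group means was 0.38 for db/db over db/+ and -0.32 for STZ-HFD over Con+Veh, and a sum over chosen genes was not tested. The first rested on db/db replicate 1, without which it was -0.03, while the second was -0.41 to -0.20 when any 1 library was left out. Gm22009 held 17.8% (db/+ replicate 3) to 58.0% (Con+Veh replicate 4) of a library's counts of the 16 genes. At the other end, Gm23969 had 0 counts in 2 libraries and Gm23803 and Gm26070 in 1 each. A count of 0 in those libraries allows a level of up to 0.0573 to 0.129 unscaled CPM. This is 3 counts over the library total, for counting error only. It takes counts as independent, and low counts were mostly even, so the limit may be higher.

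All following levels are CPM scaled by the library total times its TMM factor, a factor that aligns the bulk of genes between libraries. The factors were 0.70 to 0.82 in Con+Veh and in 3 of the STZ-HFD libraries, 1.52 in STZ-HFD replicate 1 and 1.06 to 1.61 in db/db and db/+. Each comparison was a linear model on log2 CPM with library weights (limma voomWithQualityWeights) over 16915 genes, and a call needed a Benjamini-Hochberg adjusted p under 0.05 together with a log2 fold change of 1 or more in size.

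**Figure D2:**
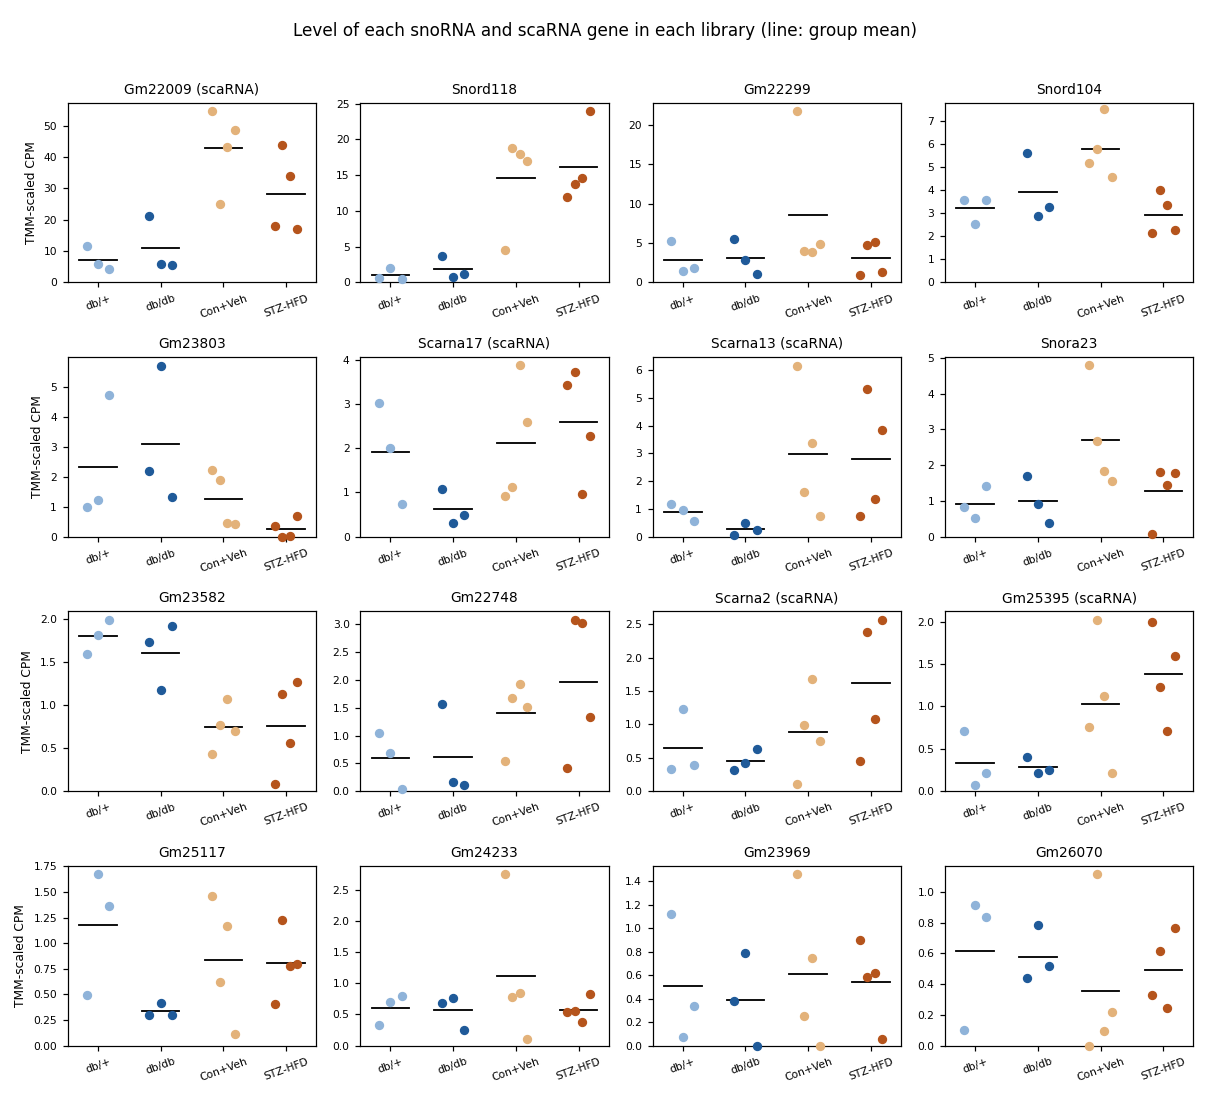
Each panel shows 1 of the 16 genes, ordered by mean level, with 1 point per library (TMM-scaled CPM on a linear axis from 0) and a line at each group mean. Diabetic and control points overlapped in both pairs for most genes, apart from Scarna13 and Gm25117 in db/db and Snord104 in STZ-HFD.

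No snoRNA or scaRNA gene was called in db/db against db/+ (0 of 16), where 1.66% of all genes tested were called by limma. Of the 16, 2 had an unadjusted p under 0.05, both lower in db/db, against 10.4% of all genes in that direction. None of the 16 was called by the quasi-likelihood test of edgeR, which called 0% of all genes, or by DESeq2, which called 1.25%. In these tests 2 and 3 of them had an unadjusted p under 0.05, against 11.2% and 12.6% of all genes. DESeq2 gave no adjusted p for Gm23969, Gm24233, Gm25117, Gm25395 and Gm26070, so it could not call them. Groups did not overlap for 2 of the 16, Gm25117 and Scarna13, both lower in db/db, and such a separation in the lower direction was seen for 11.7% of all genes. The median log2 fold change was -0.08 over the 16 genes and -0.04 over all genes.

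In STZ-HFD against Con+Veh 0 of the 16 genes were called, where 2.61% of all genes tested were called by limma. A single gene, Snord104, had an unadjusted p under 0.05, against 9.54% of all genes lower at that p. None of the 16 was called by the quasi-likelihood test of edgeR (0.171% of all genes called) or by DESeq2 (1.64%). In each, 3 genes were under the same unadjusted p, against 12.6% and 13.9% of all genes. Here too DESeq2 gave no adjusted p for Gm23969, Gm24233, Gm25117, Gm25395 and Gm26070 and could not call them. Snord104 was also the only one of the 16 whose groups did not overlap, and a separation in the lower direction was seen for 2.77% of all genes. The median log2 fold change was 0.02 over the 16 genes and -0.04 over all genes.

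These tests bound the changes loosely. The standard error of the log2 fold change ran from 0.31 to 1.57 in db/db and from 0.33 to 1.72 in STZ-HFD, with medians of 0.71 and 0.62, against 0.32 and 0.34 over all genes. The 95% interval reached a change of 1 on the log2 scale in at least 1 direction for 14 of the 16 genes in db/db and for 15 in STZ-HFD. Intervals stayed within that size for Snord104 and Gm23582 in db/db and for Snord118 in STZ-HFD. When 1 library was left out in turn, the sign of the fitted change held throughout for 4 of the 16 genes in db/db (Snord118, Gm25117, Scarna13 and Scarna17) and for 7 in STZ-HFD (Snord104, Gm22299, Snora23, Gm23803, Gm26070, Gm22009 and Scarna2). It turned at least once for the other 12 and 9. The weighted fit also had the opposite sign to the ratio of the mean CPM of the groups for 3 genes in db/db (Gm22748, Gm25395 and Gm26070) and for 6 in STZ-HFD (Gm23969, Gm24233, Gm25117, Gm23582, Scarna13 and Scarna17).

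**Figure D3:**
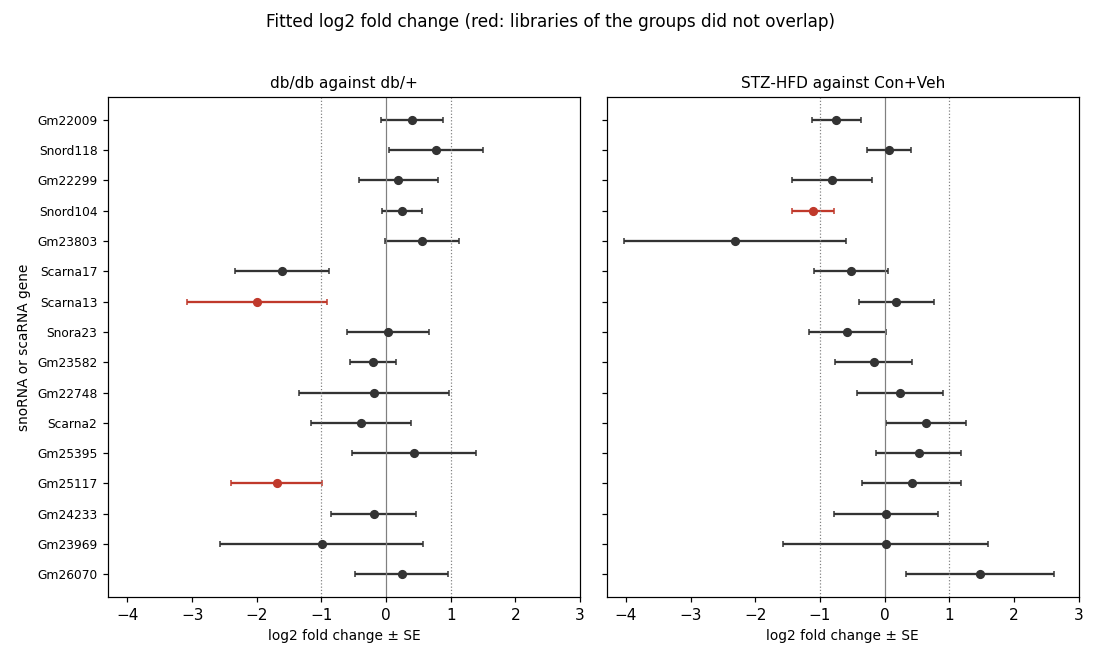
Points show the fitted log2 fold change of each of the 16 genes with its standard error, for db/db against db/+ (left) and STZ-HFD against Con+Veh (right). Dotted lines mark a change of 1 in each direction, and red marks Scarna13, Gm25117 and Snord104, whose libraries did not overlap between the groups.

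Among the box C/D RNAs, Snord104 came closest to the threshold. It was at 5.16, 5.81, 7.53 and 4.59 CPM in the Con+Veh libraries and at 2.13, 4.00, 3.34 and 2.28 CPM in the STZ-HFD libraries. Every STZ-HFD library was below every Con+Veh library. In the fit the difference for Snord104 was -1.11 on the log2 scale (SE 0.33, 95% interval -1.80 to -0.42, n = 4 and 4), with a limma adjusted p of 0.0719. Without STZ-HFD replicate 1 it was -1.04 with a limma adjusted p of 0.0973, and it was negative when any 1 library was left out (-1.25 to -0.82, limma adjusted p from 0.0544 to 0.649). Over the 13 other settings the adjusted p of Snord104 (limma, edgeR or DESeq2) ran from 0.0704 to 0.956 and the direction was the same. The disc marker sum separated the same groups in the same direction, and its part in this value was not tested.

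In the db mice Snord104 was at 3.57, 2.54 and 3.56 CPM in db/+ and at 5.60, 2.88 and 3.28 CPM in db/db, and the groups overlapped (log2 fold change 0.25, SE 0.31, limma adjusted p 0.686). The difference of the responses in the 2 models, STZ-HFD minus db/db, was -1.36 on the log2 scale with a limma adjusted p of 0.126. Snord104 is the only one of the 16 with an unadjusted p under 0.05 for this difference, 8.94% of all genes had one in that direction, and no gene of the 16 was called against 1.77% of all genes. RefSeq places Snord104 within the span of the long noncoding RNA gene Gm36220, which was not analysed here.

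Snord118 encodes U8, which is needed for the maturation of the large ribosomal subunit RNAs. Its level was 0.571, 1.97 and 0.433 CPM in db/+, 3.72, 0.742 and 1.19 CPM in db/db, 4.49, 18.7, 18.0 and 16.9 CPM in Con+Veh and 12.0, 13.8, 14.6 and 24.0 CPM in STZ-HFD. Con+Veh replicate 1 lay far below the other 3 libraries of its group. The log2 fold change was 0.77 in db/db (SE 0.73, limma adjusted p 0.576; 0.13 without db/db replicate 1 and 1.56 without db/+ replicate 2) and 0.07 in STZ-HFD (SE 0.34, limma adjusted p 0.944).

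Across the study Snord118 was the only one of the 16 genes whose 6 db/+ and db/db libraries (median 0.965 CPM, highest 3.72) all lay below the 8 others (median 15.7, lowest 4.49), and 1.53% of all genes tested lay so. With CPM not scaled by TMM factors the ranges of Snord118 met, at 0.592 to 4.87 CPM against 3.59 to 18.2 CPM. On that unscaled level Gm23582 was higher in every library of the db mice (1.69 to 2.73 CPM against 0.124 to 0.946). It exceeded 1 CPM in those 6 libraries only, so it met the minimum only through the mice where it is high. Its separation on the scale of that rule is therefore a description only. The share of all genes so separated is not given here. The db mice and the others differed in genotype, age and handling together, which cannot be told apart. The share of ribosomal RNA genes and the disc marker sum also separated them, and the part of these in either level was not tested. Tmem107, the gene that ends 133 bases before Snord118 on the same strand, was at 0.0811 to 1.84 CPM over the 14 libraries.

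Gm23969, 74 bases long with box D letters near its end, lies in an intron of Rpl7a, a gene for a protein of the large ribosomal subunit. It ranged from 0.0692 to 1.12 CPM in db/+, 0 to 0.785 in db/db, 0 to 1.46 in Con+Veh and 0.0591 to 0.900 in STZ-HFD. Its standard error on the log2 scale, 1.57 and 1.59, was among the largest of the 16, and no difference was detected.

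Among the box H/ACA type RNAs, Gm25117 had the smallest p in db/db. It was at 0.490, 1.68 and 1.36 CPM in db/+ and at 0.297, 0.414 and 0.297 CPM in db/db. All db/db libraries were below all db/+ libraries, although the lowest db/+ library was close to the highest db/db library. The fitted log2 fold change was -1.69 (SE 0.70, 95% interval -3.17 to -0.21, n = 3 and 3), with a limma adjusted p of 0.181. In Con+Veh it was at 1.46, 0.620, 1.17 and 0.108 CPM and in STZ-HFD at 0.409, 1.23, 0.772 and 0.798 CPM, with overlap (log2 fold change 0.42, SE 0.77, limma adjusted p 0.826). Gm25117 was kept only with db/+ replicates 2 and 3 and Con+Veh replicate 1 all present, and adipocyte and bone marker sums also separated db/db from db/+.

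Gm22299, another gene of the H/ACA type, was at 5.20, 1.44 and 1.79 CPM in db/+, 5.49, 2.84 and 1.13 CPM in db/db, 21.8, 3.95, 3.88 and 4.86 CPM in Con+Veh and 0.981, 4.75, 5.16 and 1.33 CPM in STZ-HFD. Con+Veh replicate 1 held several times the level of any other library. In the fit its log2 fold change was 0.19 in db/db (SE 0.61) and -0.81 in STZ-HFD (SE 0.62, limma adjusted p 0.540).

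Snora23 was at 0.519 to 1.41 CPM in db/+, 0.391 to 1.69 in db/db, 1.57 to 4.78 in Con+Veh and 0.0818 to 1.81 in STZ-HFD. The groups overlapped in both models, and the log2 fold change was 0.03 (SE 0.64) in db/db and -0.58 (SE 0.60) in STZ-HFD.

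The fitted changes of the 3 related genes differed in sign, with wide errors. Gm23803 was at 0.979, 1.23 and 4.73 CPM in db/+, 2.19, 5.70 and 1.33 CPM in db/db, 2.22, 1.90, 0.467 and 0.432 CPM in Con+Veh and 0.368, 0, 0.0309 and 0.680 CPM in STZ-HFD. The log2 fold change of Gm23803 was 0.56 (SE 0.57) in db/db, and its value in STZ-HFD, -2.31, carried the largest standard error of the 16 (1.72, limma adjusted p 0.526). Gm23582 was steadier, at 1.59, 1.82 and 1.99 CPM in db/+, 1.74, 1.17 and 1.92 CPM in db/db, 0.432, 0.765, 1.08 and 0.702 CPM in Con+Veh and 0.0818, 1.13, 0.556 and 1.27 CPM in STZ-HFD (log2 fold change -0.21, SE 0.36, in db/db and -0.17, SE 0.60, in STZ-HFD). Gm23582 lies antisense to the protein-coding gene Vps54 and touches no exon of it. Gm26070, in an intron of Slit3, ranged from 0 to 1.12 CPM, with a log2 fold change of 0.24 (SE 0.72) in db/db and 1.48 (SE 1.14, limma adjusted p 0.545) in STZ-HFD. RefSeq lists Gm23582 as a pseudogene.

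Gm22748, in an intron of Odc1, the gene for the first enzyme of polyamine synthesis, ranged from 0.0464 to 1.57 CPM in the db mice and from 0.409 to 3.08 CPM in the others. Its log2 fold change was -0.19 (SE 1.16) in db/db and 0.24 (SE 0.67) in STZ-HFD. Gm24233, in an intron of Mia2, whose product helps to export large cargo from the endoplasmic reticulum, ranged from 0.108 to 2.76 CPM over all libraries. Its log2 fold change was -0.19 (SE 0.66) in db/db. Gm24233 was at 2.76, 0.785, 0.841 and 0.108 CPM in Con+Veh and at 0.532, 0.547, 0.371 and 0.828 CPM in STZ-HFD. Its log2 fold change there was 0.02 (SE 0.81) in the weighted fit, -0.64 without library weights, -0.99 with edgeR and -0.78 without Con+Veh replicate 4.

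Among the scaRNA genes, Gm22009 was at 11.5, 5.92 and 4.16 CPM in db/+, 21.2, 5.85 and 5.44 CPM in db/db, 54.8, 24.9, 43.1 and 48.7 CPM in Con+Veh and 17.8, 43.8, 33.9 and 16.97 CPM in STZ-HFD. Of the STZ-HFD libraries 2 lay below all Con+Veh libraries and the other 2 lay among them. The log2 fold change was -0.75 in STZ-HFD (SE 0.38, 95% interval -1.55 to 0.05, limma adjusted p 0.311) and 0.40 in db/db (SE 0.48, limma adjusted p 0.673).

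Scarna13 was at 1.18, 0.969 and 0.557 CPM in db/+ and at 0.0626, 0.514 and 0.234 CPM in db/db. The groups did not overlap, with the highest db/db library just under the lowest db/+ library. In the fit this came to -2.001 on the log2 scale (SE 1.08, 95% interval -4.28 to 0.28, n = 3 and 3), with a limma adjusted p of 0.299, and it was -1.26 without db/db replicate 1 (limma adjusted p 0.557, and 0.248 to 0.557 over the libraries left out in turn). In Con+Veh it was at 6.16, 1.61, 3.37 and 0.756 CPM and in STZ-HFD at 0.736, 5.30, 1.36 and 3.84 CPM, with a log2 fold change of 0.18 (SE 0.58). The microRNA gene Mir3069 overlaps Scarna13, and how reads over both were counted is not given in the sources used here.

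Scarna17 was at 3.02, 2.01 and 0.742 CPM in db/+ and at 1.08, 0.314 and 0.484 CPM in db/db. The groups overlapped, because the lowest db/+ library was under the highest db/db library. This gave a log2 fold change of -1.62 (SE 0.73, limma adjusted p 0.217), with a sign that held in all settings. Scarna17 was at 0.919, 1.12, 3.88 and 2.59 CPM in Con+Veh and at 3.44, 3.73, 0.958 and 2.28 CPM in STZ-HFD. The fitted change there was -0.52 (SE 0.57, limma adjusted p 0.688), but its direction turned with edgeR (0.30), with DESeq2 (0.33), without library weights (0.57) and without Con+Veh replicate 3 (0.23) or STZ-HFD replicate 3 (0.09). Of its 31-base words 81.6% also occur in the gene Gm25443, so its reads are uncertain. RefSeq places Scarna17 within the span of the long noncoding RNA gene Gm41774.

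Scarna2, which guides methylation of U2 small nuclear RNA and has no host gene, was at 0.313 to 1.23 CPM in the db mice, 0.108 to 1.68 CPM in Con+Veh and 0.450 to 2.57 CPM in STZ-HFD. Its fitted change on the log2 scale was -0.39 (SE 0.78) in db/db and 0.65 (SE 0.62, limma adjusted p 0.638) in STZ-HFD. Gm25395, in an intron of the autophagy gene Atg16l1, was at 0.0692 to 0.714 CPM in the db mice, 0.216 to 2.03 CPM in Con+Veh and 0.711 to 2.00 CPM in STZ-HFD, with log2 fold changes of 0.43 (SE 0.96) and 0.53 (SE 0.66).

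Other genes shared 31-base words with annotated transcripts of further genes as well. Of the 31-base words of Gm24233 41.3% recur in other genes, Snora26 and Dancr among them, and the shares were 34.0% for Gm22748, 32.4% for Snord118 (with Gm24208), 14.7% for Gm23803, 14.3% for Scarna13 (with Mir3069), 6.14% for Gm25117 and 3.83% for Gm22009. Mir3069 overlaps Scarna13 and is no copy of it, and the words of Gm22009 were spread over 154 genes. The remaining 8 genes shared none with the annotated transcripts, and the rest of the genome was not searched. How the authors treated reads that map to several places is not given in the sources used here.

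Of the 16 genes 10 lay inside a host gene on the same strand, and none of the 10 overlapped an exon of it. The other hosts are protein-coding and Snhg10, which holds Scarna13, is a noncoding RNA. Counts over an intronic gene can come from the mature small RNA or from the unspliced host transcript, which cannot be told apart here.

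Per kilobase of exon and averaged over the 14 libraries, 5 of the 10 exceeded their host and 5 were below it. Gm22299 stood at 33.9 CPM per kilobase against 0.664 for Gm29394. Gm22009 stood at 70.4 against 8.94 for Kpna4, a nuclear import receptor gene, and Snora23 at 8.44 against 1.65 for Ipo7, another one. Below their hosts were Gm25117, with 5.51 against 22.3 CPM per kilobase for the histone chaperone gene Nap1l1, Gm23969, with 7.05 against 25.9 for Rpl7a, and Gm26070, with 3.64 against 12.3 for Slit3. Of the genes without a host in GENCODE M21, Snord118 reached 69.3 and Snord104, which RefSeq places within Gm36220, 57.4 CPM per kilobase.

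**Figure D4:**
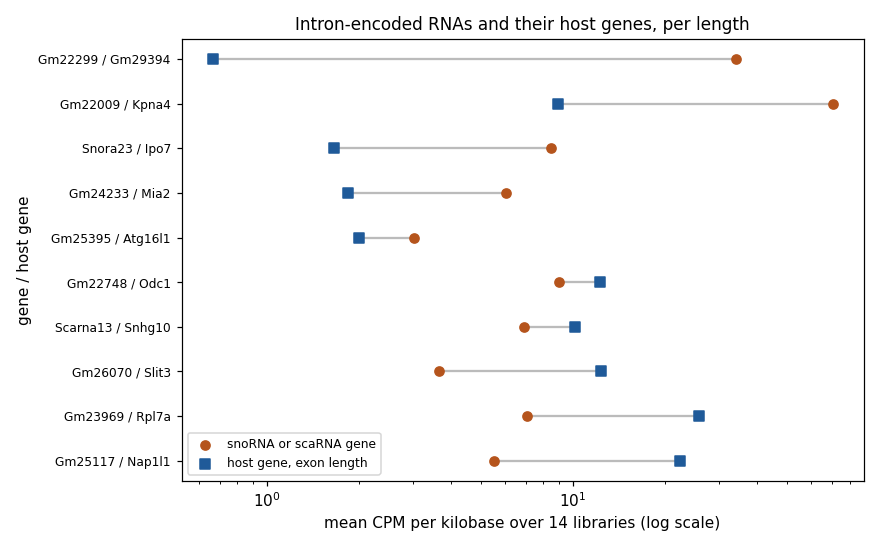
For each of the 10 intron-encoded RNAs, the circle gives its mean level and the square that of its host gene's exons, in TMM-scaled CPM per kilobase over 14 libraries on a log axis. Gm22299 and Gm22009 lay farthest above their hosts, and Gm25117, Gm23969 and Gm26070 farthest below.

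No host gene was called by limma in either comparison (0 of 10), against 1.66% of all genes for db/db and 2.61% for STZ-HFD. At an unadjusted p under 0.05, 2 hosts were higher and 1 was lower in db/db (10.7% and 10.4% of all genes), and 1 was higher in STZ-HFD (8.34% of all genes). The log2 fold changes of gene and host had the same sign in 6 of 10 pairs in db/db and in 6 of 10 pairs in STZ-HFD, and in most pairs the standard error of the small RNA was larger than its estimate. Across the 10 pairs Pearson's r was -0.25 in db/db and 0.21 in STZ-HFD, as a description over genes that share libraries.

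Scarna13 and its host had opposite signs in db/db. Snhg10 was at 4.04, 2.82 and 3.66 CPM in db/+ and at 12.3, 6.61 and 9.11 CPM in db/db. All db/db libraries were above all db/+ libraries, with a log2 fold change of 1.39 (SE 0.45, limma adjusted p 0.101). Per 100 counts of Snhg10 there were 29.3, 34.4 and 15.2 counts of Scarna13 in db/+ and 0.508, 7.78 and 2.57 in db/db. The lowest value, in db/db replicate 1, rests on 4 counts of Scarna13. The ratio varied widely within the other groups, at 345, 12.9, 131 and 15.6 in Con+Veh and 69.2, 397, 19.4 and 68.1 in STZ-HFD. The ratio was not tested.

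Other hosts also separated the groups in db/db without being called. Kpna4 was at 59.8, 73.7 and 59.2 CPM in db/+ and at 99.2, 100 and 90.6 CPM in db/db (log2 fold change 0.58, SE 0.37, limma adjusted p 0.381). Ipo7 was at 11.1, 9.15 and 7.78 CPM in db/+ and at 18.6, 13.3 and 14.3 CPM in db/db (log2 fold change 0.71, SE 0.30, limma adjusted p 0.187). Both were higher in every db/db library, whereas Atg16l1 was lower in every one (log2 fold change -0.60, SE 0.28, limma adjusted p 0.223). Groups stood apart for 14.1% of all genes in the higher direction in this comparison. In STZ-HFD no host separated the groups. Kpna4 had the smallest p there, with a log2 fold change of 0.74 (SE 0.31, limma adjusted p 0.205), next to -0.75 for its intronic Gm22009. The log2 fold change of Gm29394 was -2.28 (SE 1.19, limma adjusted p 0.332), next to -0.81 for Gm22299. It ran from -2.60 to -0.76 over the other settings. Counts of Gm29394 were near the floor in STZ-HFD replicate 3, where Gm22299 had 167 counts, or 16700 per 100 of Gm29394.

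The proteins that build, move and trim these RNAs were read from a list of 42 genes, of which 41 were measured and all 41 passed the minimum. limma called none of the 41 in db/db or in STZ-HFD, against 1.66% and 2.61% of all genes. At an unadjusted p under 0.05, 8 were higher and 2 lower in db/db (10.7% and 10.4% of all genes), and 1 was higher and 1 lower in STZ-HFD (8.34% and 9.54% of all genes). Their median log2 fold change was 0.16 in db/db and 0.06 in STZ-HFD, against -0.04 over all genes in each.

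Naf1, an assembly factor of box H/ACA particles, came closest in db/db. It was at 7.18, 7.68 and 11.7 CPM in db/+ and at 13.4, 26.8 and 40.2 CPM in db/db, with every db/db library higher. Its log2 fold change was 1.52 (SE 0.39), with a limma adjusted p of 0.0515. Imp3, a partner of the U3 particle, was at 11.2, 13.2 and 9.96 CPM in db/+ and at 29.0, 22.9 and 24.1 CPM in db/db (log2 fold change 1.13, SE 0.31, limma adjusted p 0.0651).

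Nop58, a core protein of box C/D particles, was at 20.6, 18.2, 21.6 and 22.6 CPM in Con+Veh and at 16.4, 12.4, 15.1 and 15.1 CPM in STZ-HFD. Every STZ-HFD library was lower, with a log2 fold change of -0.55 (SE 0.16, limma adjusted p 0.0767). In db/db all libraries were higher than in db/+ (log2 fold change 0.44, limma adjusted p 0.175). The difference of the responses, STZ-HFD minus db/db, was -0.99 with a limma adjusted p of 0.0479, which did not reach the fold minimum. The core proteins fibrillarin (Fbl, -0.47 in db/db and -0.03 in STZ-HFD on the log2 scale) and dyskerin (Dkc1, 0.23 and 0.04) had limma adjusted p values between 0.332 and 0.978.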

How the data were processed

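The labels and methods describe 1 library per mouse, made from total RNA with an amplification kit, then sonication. The authors aligned reads to the Ensembl release 101 mouse assembly (GRCm38) with STAR and deposited counts per gene from featureCounts, and deposited estimated counts per transcript from Salmon. Strand and multi-mapping settings are not given in the sources used here. Of 55774 lines in the gene table, 287 were exact repeats and were dropped. Transcript estimates were used for host and protein genes only. The members and lists were chosen with earlier results of these data known.

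Genes with unscaled CPM above 1 in at least 3 libraries (16915) were fitted in 1 model of 4 group means with limma 3.58.1 (voomWithQualityWeights, TMM from edgeR 4.0.16, R 4.3.3). DESeq2 1.42.0, edgeR's quasi-likelihood test, other filters, scalings and left-out libraries were alternatives. The scripts were tested on simulated data. Named genes were all 16 (by rule the most abundant, those with the smallest p, every scaRNA, textbook roles and the threshold), their hosts and, from the protein list, those with the smallest p and the core enzymes. A host is a GENCODE M21 gene on the same strand whose span holds the whole small RNA gene. Library totals bound the precision of each level, and floors cover counting error only. Each library is 1 mouse by the methods, and p-values measure the spread between these libraries.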

Additional observations from a re-analysis of the deposited data

Results flagged for a closer look

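Of 32 sets of 4 libraries (16 genes in Con+Veh and in STZ-HFD), 2 had a library far from the rest, and chance alone flags about 1 in 20 sets, which is 1.6 here. Both were Con+Veh replicate 1. Gm22299 was at 21.8 CPM there, against 3.88 to 4.86 CPM in the other 3 Con+Veh libraries. Snord118 was at 4.49 CPM there, against 16.9 to 18.7 CPM in the others. Con+Veh replicate 1 had the lowest weight of the 14 libraries in the fit, 0.27.

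Among the 1542 snoRNA and scaRNA genes that did not pass the minimum, the summed unscaled level was 102 CPM in STZ-HFD replicate 1, against 14.2 to 24.2 CPM in the Con+Veh libraries. That library had a count in 367 of the 1542, against 71 to 231 in the other 13 libraries. The other 3 STZ-HFD libraries were at 14.7 to 17.8 CPM. The same library had a count in more genes and processed pseudogenes than any other, and the cause was not tested.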

How the results depend on the processing

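Under any alternative run that gave an adjusted p, no snoRNA or scaRNA gene was called in STZ-HFD or for the difference of the models. In db/db the same held except with the replicate block, which called 1 gene higher (Snord118, log2 fold change 1.61, limma adjusted p 0.0303) and 1 lower (Scarna17, -1.53, limma adjusted p 0.0111), and took all calls from 281 to 1484 in db/db and from 441 to 6 in STZ-HFD. Deviations of same-numbered libraries correlated at -0.25 to 0.17 in the db mice and at -0.23 to -0.05 in the others. For differently numbered libraries the ranges were -0.25 to 0.42 and -0.16 to 0.26. So few pairs cannot decide whether the numbers pair mice, and the labels do not say. Host genes called in db/db were 1 instead of 0 with the replicate block (Snhg10, limma adjusted p 0.0020) and 1 with each model fitted alone. Protein genes called in db/db went from 0 to 1 with RLE size factors, with each model fitted alone and with ribosomal RNA genes removed, to 2 with the replicate block, with the length trend removed and without both libraries whose names end in RIP, and were 0 to 2 when 1 library was left out. The cause of these moves was not tested.

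Counts of all genes called depended on the tool. In db/db they were 281 with limma, 0 with edgeR, 212 with DESeq2 and 9 without library weights, and in STZ-HFD they were 441, 29, 277 and 19. With a fold of 1.2 tested in limma treat they were 34 and 122, with no filter 534 and 130, with filterByExpr 236 and 217, from Salmon 144 and 56, with the GC trend removed 184 and 493, with each model alone 332 and 230, and without both RIP libraries 388 and 236. When 1 library was left out they ran from 21 to 395 in db/db, with 21 to 143 when the library was db/+ or db/db, and from 14 to 643 in STZ-HFD, with 14, 15, 18 and 164 without Con+Veh replicates 3 and 4 and STZ-HFD replicates 3 and 4. Over the 27 alternative fits, 393 fold changes of the 16 genes kept their sign and side of the threshold in db/db, 37 changed sign uncalled and 2 became called, and in STZ-HFD these were 395 and 37, with none called. The log2 ratio of the summed level moved by less than the spread between libraries without Gm22009 and without ribosomal RNA in the total. The same held with TMM scaling and without any 1 library, both chosen after seeing the data. Leaving out 1 library gave -0.03 to 0.69 in db/db and -0.41 to -0.20 in STZ-HFD. The summed level itself was higher in every group with ribosomal RNA out of the total (69.9 against 147 CPM in Con+Veh). The transcript estimates were not used for the 16 genes. Gm23969, Gm23803 and Gm26070 had libraries at 0 counts.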
